A study of Mus musculus with 13 samples.

Results

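Colon epithelium moves salt and water through a small set of transporters, and 9 of their genes were followed here through scRNA-seq of mouse colon tumors and adjacent mucosa: Slc26a3, Slc9a3, Aqp4, Aqp8, Car1, Car2, Car4, Cftr and Atp12a. The genes were chosen by name for their role, with earlier results of these data known. All 9 were found among the 32285 genes in the files. Tumors gave 10 of the 13 libraries and adjacent mucosa gave 3, from 3 mice, all C57BL/6J with the genotype ApcMin/+; p16cis/cis and all on the supplemented diet, which adds choline, betaine, folic acid and vitamin B12. Mouse A (24 weeks) gave mucosa 2 and tumors 5 to 8, mouse B (23 weeks) gave mucosa 3 and tumors 9 and 10, and mouse C (20 weeks) gave mucosa 1 and tumors 1 to 4. ApcMin/+ is a germline loss of one copy of a Wnt pathway suppressor, and p16cis carries an engineered element that draws DNA methylation to the p16 promoter, so the mucosa holds both alleles too and is not wild-type tissue. The mucosa was dissociated with EDTA and TrypLE and the tumors with a tumor dissociation kit, so dissociation and tissue cannot be told apart.

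In the healthy colon, surface colonocytes take up sodium chloride through paired exchangers, Slc9a3 (NHE3) for sodium against protons and Slc26a3 (DRA) for chloride against bicarbonate, and water follows. Carbonic anhydrases supply the protons and bicarbonate: Car1 and Car2 are cytosolic, and Car4 is anchored at the outer cell surface. Aqp8 and Aqp4 are water channels, Aqp4 on the basolateral side. Cftr is the chloride channel of the crypt, which drives fluid secretion, and Atp12a is the catalytic subunit of the colonic proton-potassium pump.

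Mucosa libraries held 84883382 to 116133079 UMIs (unique molecular identifiers, each a counted RNA molecule) in 4917 to 9398 cells, of which 2503 to 7162 were epithelial. Tumor libraries held 57221300 to 93157039 UMIs in 6916 to 9791 cells, of which 1186 to 2260 were epithelial. Levels are given in CPM, the UMIs of a gene per 1000000 UMIs of the same cells. The 8 epithelial markers were detected in the epithelial sums of every library, at a summed 9117 to 13753 CPM in mucosa and 9377 to 14975 CPM in tumors. Any pair of libraries shared at most 61 barcodes, 0.561% of the smaller library. Sex-linked RNA went against the sex in the labels in 7 of the 13 libraries, and sex was not used. Cells were clustered without the 9 genes or the 60 other transport genes described at the end. The 13 epithelial clusters were thus not built from any of these. Each cluster is called by its leading gene. Guca2a, a gene of the 60, was also among the absorptive markers used for naming the clusters.

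The promoters of 4 of the genes are shown because these were the members lower in the one absorptive cluster that both tissues held, whereas over all epithelial cells Slc9a3 parted from the rest. Each runs from 250 bases before to 30 bases after the RefSeq start, plus strand, build GRCm38.p6, and capitals mark matches to the motifs searched on both strands.
Aqp8, chr7:123462044-123462323: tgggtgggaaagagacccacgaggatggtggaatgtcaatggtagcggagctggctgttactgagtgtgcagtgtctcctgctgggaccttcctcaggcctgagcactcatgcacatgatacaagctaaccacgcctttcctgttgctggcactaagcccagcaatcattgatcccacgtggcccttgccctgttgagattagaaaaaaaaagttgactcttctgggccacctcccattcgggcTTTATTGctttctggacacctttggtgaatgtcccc
Car4, chr11:84957504-84957783: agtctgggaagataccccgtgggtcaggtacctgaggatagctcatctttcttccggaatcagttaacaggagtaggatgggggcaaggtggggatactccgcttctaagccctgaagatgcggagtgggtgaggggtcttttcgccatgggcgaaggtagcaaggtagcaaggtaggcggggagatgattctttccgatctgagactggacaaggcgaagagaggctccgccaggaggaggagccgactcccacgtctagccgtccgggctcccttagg
Slc26a3, chr12:31437969-31438248: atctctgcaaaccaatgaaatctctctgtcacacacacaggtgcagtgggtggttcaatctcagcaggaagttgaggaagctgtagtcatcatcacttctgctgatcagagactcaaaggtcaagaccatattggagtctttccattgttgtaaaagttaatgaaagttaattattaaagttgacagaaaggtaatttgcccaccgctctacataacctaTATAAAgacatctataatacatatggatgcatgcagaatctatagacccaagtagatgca
Slc9a3, chr13:74121163-74121442: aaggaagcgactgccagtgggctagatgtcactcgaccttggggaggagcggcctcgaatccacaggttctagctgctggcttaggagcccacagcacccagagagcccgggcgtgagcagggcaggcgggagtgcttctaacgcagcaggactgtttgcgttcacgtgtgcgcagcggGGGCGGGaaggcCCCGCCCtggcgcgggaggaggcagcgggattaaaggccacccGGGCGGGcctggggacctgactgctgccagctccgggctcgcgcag
RefSeq promoters were matched for 5 of the 9 genes, the fifth being Cftr. The Aqp8 window held 1 match to TTTATNG, a caudal-type homeobox motif found in 10.5% of 32851 promoters, which ended on the start base. The Slc26a3 window held 1 TATAAA, found in 13.1% of promoters, 30 to 25 bases before the start. A TTTATNG on one strand can overlap a TATAAA on the other. Slc9a3 held 3 matches to the GC box CCCGCCC, found in 24.96% of promoters, and Cftr held 5. The Car4 window held none of the motifs, and no window of the 5 held CAAAGTCC, an HNF4 motif found in 1.36% of promoters. GC content was 52.5% for Aqp8, 57.9% for Car4, 38.9% for Slc26a3, 68.2% for Slc9a3 and 72.9% for Cftr, with a median of 52.5% over all promoters. These matches describe the letters only.

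In the mucosa, the members sat in different clusters of cells. The Cyp2c55-led cluster, absorptive epithelial-like by 11 of its 12 fixed markers, made up a median of 24.3% of mucosal epithelial cells and gave 94.1% of the Slc9a3 UMIs, 93.2% of the Car1 UMIs, 83.0% of the Aqp8 UMIs, 73.3% of the Car4 UMIs and 72.4% of the Slc26a3 UMIs (medians of 3 libraries). Cftr was found elsewhere: the Sult1a1-led cluster, which no marker list named, gave 51.5% of its UMIs, at 117, 110 and 114 CPM in mucosa 1, 2 and 3, and the cycling Hist1h1b-led cluster stood at 118, 89.8 and 103 CPM. In the Cyp2c55-led cells Cftr stood at 45.6, 26.9 and 36.5 CPM in the same libraries, below both. Slc9a3 ran the other way, at 122, 130 and 194 CPM in Cyp2c55-led cells and at most 1.70 CPM in Sult1a1-led cells. In mucosa 2 and 3 Atp12a came mostly from a small second absorptive cluster led by Clca4b (over the 3 mucosa libraries, a median of 3.5% of epithelial cells and 59.3% of the Atp12a UMIs), where it stood at 246 and 437 CPM in mucosa 2 and 3, against 5.72 and 5.24 CPM in their Cyp2c55-led cells. In mucosa 1, 80.6% of the Atp12a UMIs came from 239 Cyp2c55-led cells (77.8 CPM) and 13.3% from only 11 Clca4b-led cells. Car2 and Aqp4 were spread more evenly, at 266 to 452 CPM and 83.2 to 146 CPM in Sult1a1-led cells.

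Free RNA can add to these levels, and immune cells of the same libraries were used as its background. They held fewer UMIs per cell than the Clca4b-led cells, as given below. Their CPM therefore need not be the level that free RNA adds to epithelial cells. Mucosal immune cells held Car1 at 0.657, 627 and 210 CPM in mucosa 1, 2 and 3 and Car2 at 58.4 to 85.1 CPM, while each of the other 7 members reached at most 15.4 CPM. Tumor immune cells held Car1 at no more than 2.43 CPM and Car2 at 6.18 to 14.6 CPM. The Car1 level of the Sult1a1-led cells, 43.8, 1575 and 1314 CPM in mucosa 1, 2 and 3, stood above that of immune cells in each library.

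**Figure D1:**
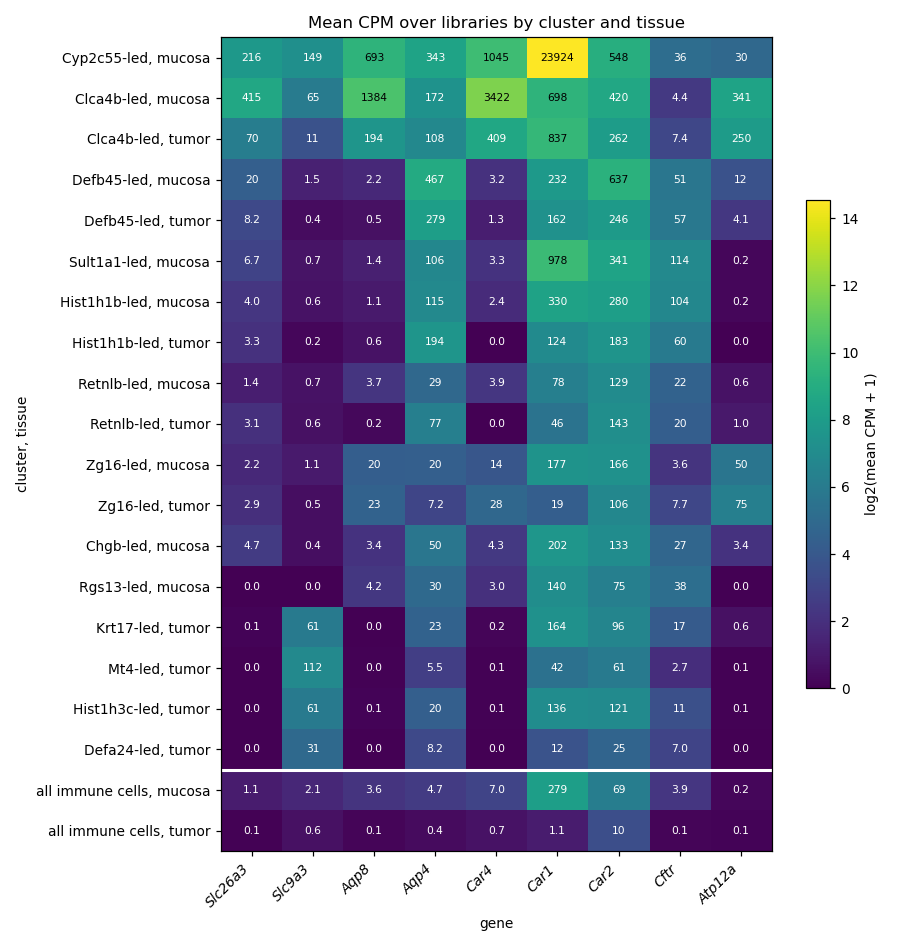
Mean CPM over libraries (printed in each cell, colored on the scale log2(mean CPM + 1)) of each member (columns) in each epithelial cluster and tissue and in all immune cells (rows). Slc9a3 is high in the Cyp2c55-led cells of the mucosa and in the Mt4-led and Krt17-led cells of the tumors, whereas Aqp8 and Car4 exceed 100 CPM only in the Cyp2c55-led and Clca4b-led rows.

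The first comparison asked how the members differed between tumor and mucosa over all epithelial cells of a library. Of the 9 members, 7 were lower in tumors by edgeR's quasi-likelihood test (adjusted p under 0.05), where 30.2% of the 15485 genes tested were lower and 33.7% higher, and none was higher. The median log2 change of the members was −2.13, against 0.04 over all genes tested. The members were chosen with earlier results of these data known, so their set against all genes is a description. For 5 members every tumor lay below every mucosa library, as did 12.9% of all genes tested, while 32.7% had every tumor above every mucosa library. In sums over a mixed tissue, fewer cells of a type and less RNA per cell cannot be told apart.

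The paired exchangers parted. Slc26a3, the chloride-bicarbonate exchanger, stood at 32.5, 50.8 and 55.2 CPM in mucosa 1, 2 and 3 and at 0.811 (lowest), 4.59 (median) and 16.9 (highest) CPM in the 10 tumors. All tumors lay below all mucosa libraries, with a log2 change of −3.10 ± 0.59 (SE; edgeR adjusted p = 0.000476). Slc9a3, the sodium-proton exchanger, stood at 11.4, 32.4 and 47.1 CPM in the mucosa and at 21.1, 70.4 and 113 CPM (lowest, median, highest) in the tumors. The groups overlapped, and 9 of 10 tumors lay above the mucosa of their own mouse. The log2 difference of 0.86 ± 0.48 did not pass (edgeR adjusted p = 0.134).

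Both water channels fell. Aqp8 stood at 80.9, 196 and 173 CPM in mucosa 1, 2 and 3 and at 0.766, 10.2 and 42.7 CPM (lowest, median, highest) in the tumors. No tumor reached the mucosa, and the log2 change was −3.58 ± 0.75 (edgeR adjusted p = 0.000964). Aqp4 (18:15389496-15410982, minus strand, GRCm38) stood at 120, 114 and 110 CPM in the mucosa and at 21.3, 49.2 and 109.9 CPM in the tumors. Only tumor 10 reached the mucosal range, and the log2 change was −1.34 ± 0.38 (edgeR adjusted p = 0.0066).

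All 3 carbonic anhydrases fell. Car1 (3:14766216-14808368, minus strand) and Car2 (3:14886273-14900770, plus strand) lie on the same chromosome of GRCm38. Car1 had the largest change of the 9, but it rested on 2 of the 3 mucosa libraries: mucosa 1, 2 and 3 held 164, 8631 and 8616 CPM and the tumors 48.1, 143 and 319 CPM (lowest, median, highest). Mucosa 1 lay inside the tumor range, and in its mouse C the 4 tumors held 124, 150.0, 129 and 183 CPM. The log2 change was −5.44 ± 0.68 (edgeR adjusted p = 1.62e-05), and −6.01 without mucosa 1. Car2 was steady in the mucosa, at 275, 295 and 278 CPM, and stood at 70.0, 109 and 192 CPM (lowest, median, highest) in tumors. Every tumor was below every mucosa library (log2 change −1.61 ± 0.24, edgeR adjusted p = 5.89e-05). Car4 stood at 144, 345 and 237 CPM in the mucosa and at 3.47, 18.9 and 57.7 CPM in the tumors, again with no overlap (−3.43 ± 0.57, edgeR adjusted p = 0.000151). Erythrocyte RNA, which holds Car2, also differed between the tissues, though the ranges overlapped. Its 6 markers summed to 397, 41.2 and 310 CPM in the epithelial sums of mucosa 1, 2 and 3 and 1.87 to 84.1 CPM in tumor sums. Its part in the change was not tested.

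Cftr, the secretory chloride channel (6:18170687-18322768, plus strand, GRCm38), stood at 53.6, 55.0 and 66.6 CPM in mucosa 1, 2 and 3 and at 6.56, 15.7 and 35.5 CPM (lowest, median, highest) in the tumors. The groups did not overlap (log2 change −2.13 ± 0.34, edgeR adjusted p = 0.000123). Atp12a, the proton-potassium pump (14:56365068-56388550, plus strand), stood at 8.59, 12.6 and 19.0 CPM in the mucosa and at 1.74, 15.7 and 43.1 CPM in the tumors. The tumors spanned the mucosal range on both sides, with a log2 difference of 0.21 ± 0.69 (edgeR adjusted p = 0.807).

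**Figure D2:**
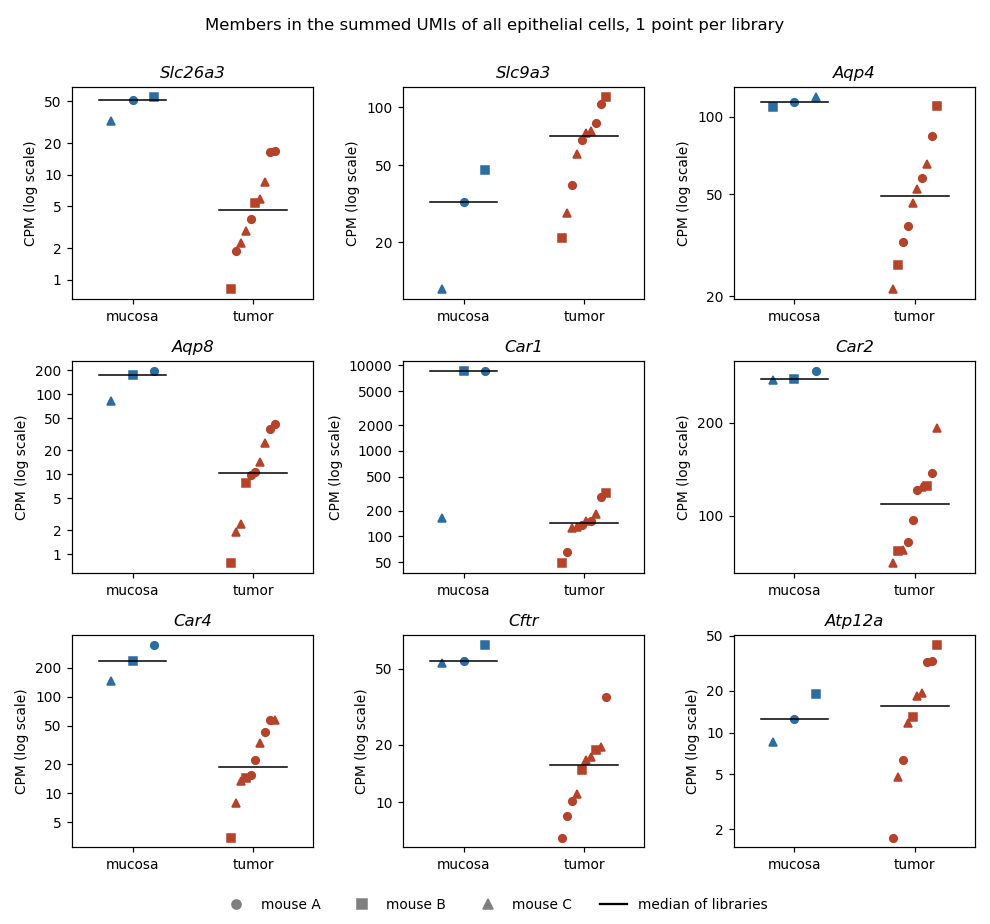
CPM in the epithelial sum of each library (log axis) for the 9 members, by tissue, with the mouse as the symbol and the median of the libraries as a line. The tumors lie below all 3 mucosa libraries for Slc26a3, Aqp8, Car2, Car4 and Cftr, and the Car1 point of mucosa 1 (164 CPM) lies among the tumors.

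An exact permutation test of single genes within mice (75 assignments, two-sided, smallest possible p = 0.0133) gave p = 0.0133 for Slc26a3, Aqp8, Car2, Car4 and Cftr, 0.0267 for Car1, 0.0533 for Aqp4, 0.1467 for Slc9a3 and 0.8133 for Atp12a. Other values moved with the tissue. The dissociation stress list (15 genes, all detected) summed to 1362 to 1582 CPM in mucosal epithelial sums and 2540 to 5619 CPM in tumor sums, the 10 immune markers to 14.8 to 15.8 and 34.1 to 125 CPM, the 10 goblet markers to 18843 to 39099 and 1494 to 9490 CPM, and the 8 stromal markers to 0.348 to 0.628 and 1.09 to 12.2 CPM. Left without goblet-like cells, the comparison again called 7 members, and the part of the other lists was not tested.

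The epithelial clusters themselves differed between the tissues: 6959 cells of the Krt17-led cluster, which passed as stem or crypt-like by its markers but was left unnamed once its leading genes had been seen, and 4842 of the Mt4-led cluster, tumor epithelial-like by its 10 fixed markers, came from tumors, with 3 and 4 from mucosa. When only the clusters with at least 5% of their cells from each tissue were summed, a choice made after seeing the data, Slc26a3, Aqp8, Car1 and Car2 were no longer lower (log2 differences 0.42, 0.02, 0.76 and 0.28), Car4 (−0.21) and Cftr (−0.11) lost their calls (edgeR adjusted p = 0.835 and 0.784), and Aqp4 (1.42) and Atp12a (2.25) were the 2 members called, both higher in tumors. In that sum 2855 of the 12336 genes tested were higher in tumors and 2175 lower. That sum still mixes clusters in unequal shares, and it leaves out the Cyp2c55-led cells, of which tumors held 52.

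The Clca4b-led cluster, a comparison also added after seeing the data, held absorptive cells of both tissues, with 1174 cells from the 10 tumors and 484 from mucosa 2 and 3. Mucosa 1 held 11 such cells and was not used. Its leading genes after Clca4b were Tgm3 and Saa1. Slc26a3, Slc9a3, Aqp8 and Car4, 4 of the 9 members, were lower in the cells from tumor libraries. Of the 9151 genes tested there, 10.5% were lower and 9.33% higher. Whether the cells of this cluster in tumor libraries were neoplastic was not tested.

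Car4 stood at 4520 and 2324 CPM in the Clca4b-led cells of mucosa 2 and 3 and at 76.1, 349 and 918 CPM (lowest, median, highest) in those of tumors (log2 change −3.32 ± 0.57, edgeR adjusted p = 0.00148). Aqp8 stood at 1691 and 1078 CPM in mucosa and 16.8, 171 and 479 CPM in tumors (−3.07 ± 0.72, edgeR adjusted p = 0.00835). Slc26a3 stood at 377 and 453 CPM in mucosa and 4.94, 63.7 and 167 CPM in tumors (−2.79 ± 0.62, edgeR adjusted p = 0.00605). In each of the 3 the highest tumor lay below the lower mucosa library, as it did for 7.18% of all genes tested in these cells, and for 19.3% every tumor lay above both. Slc9a3 stood at 37.1 and 92.7 CPM in mucosa and 0.766, 5.69 and 36.7 CPM in tumors (−2.82 ± 0.70, edgeR adjusted p = 0.0116), so here it fell together with its partner, with tumor 5 (36.7 CPM) just below mucosa 2. With 2 mucosa libraries these calls rest on each of them: without mucosa 2 the edgeR adjusted p was 0.118 for Aqp8 and 0.0516 for Slc26a3, and without mucosa 3 it was 0.0619 for Slc26a3 and 0.235 for Slc9a3 (−2.07), whose call DESeq2 did not make either (adjusted p = 0.101), leaving 2 members called each time, with the remaining mucosa library assumed to vary like the tumors. Car4 passed in both, at −2.69 (edgeR adjusted p = 0.0481) without mucosa 2.

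The other members of these cells gave no call, though an alternative called Aqp4 and another Car2. Atp12a stood at 246 and 437 CPM in mucosa and 50.2, 234 and 544 CPM (lowest, median, highest) in tumors (log2 difference −0.67 ± 0.46, edgeR adjusted p = 0.331). Car1 stood at 591 and 806 CPM in mucosa and 460, 648 and 1548 CPM in tumors (0.03 ± 0.43, edgeR adjusted p = 0.970). The ranges of both genes overlapped, and the small Car1 difference cannot be read as equal expression, since mucosal immune cells held Car1 at 627 and 210 CPM in mucosa 2 and 3, above and below the levels in these cells, against at most 2.43 CPM in tumor immune cells. How much free Car1 RNA the deeper Clca4b-led cells held was not measured. Aqp4 stood at 148 and 196 CPM against 26.3, 93.5 and 258 CPM (−0.90 ± 0.46, edgeR adjusted p = 0.182), and with the tumors of each mouse summed it was lower (−0.95, edgeR adjusted p = 0.011, range over its alternatives 0.011 to 0.546). Cftr was low on both sides, at 2.53 and 6.25 CPM against 2.25, 7.503 and 11.9 CPM (0.43 ± 0.54, edgeR adjusted p = 0.616). Car2 stood at 404 and 437 CPM against 121, 170 and 579 CPM (−0.91 ± 0.49, edgeR adjusted p = 0.205), and with the mouse as a block it was lower (−1.46, adjusted p = 0.0463, range over its alternatives 0.0463 to 0.457).

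**Figure D3:**
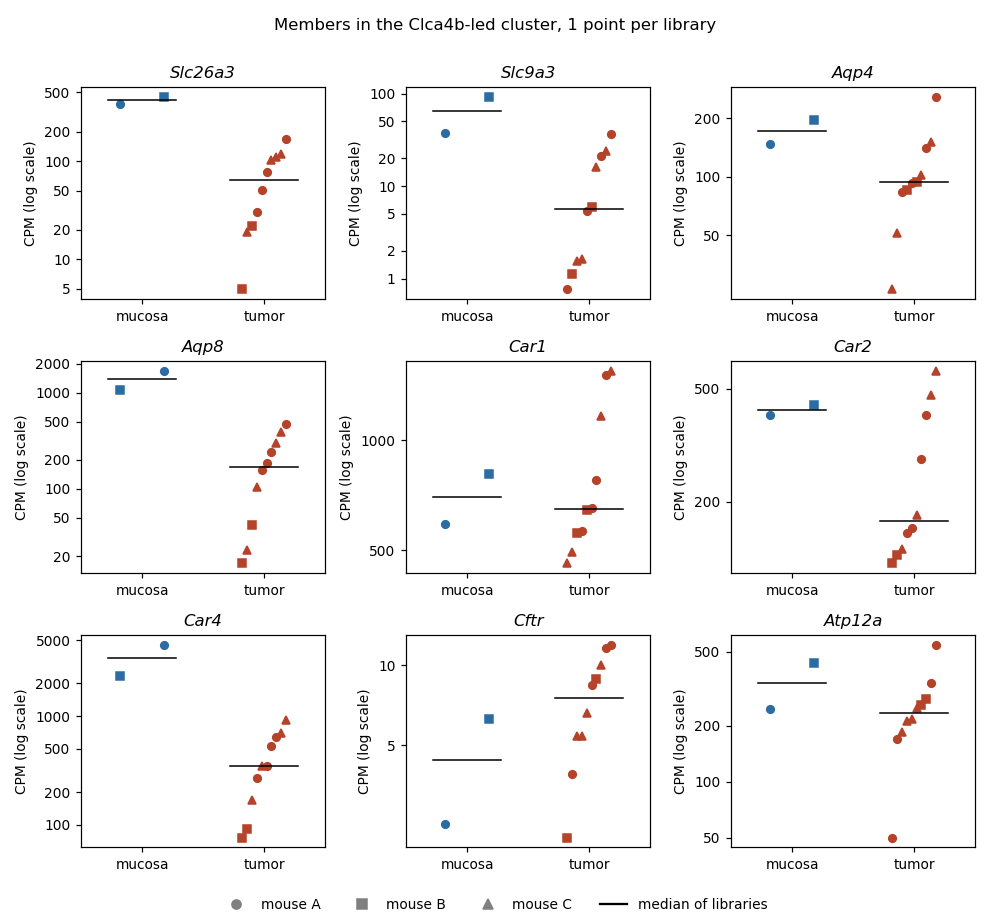
CPM in the Clca4b-led cluster of each library (log axis) for the 9 members, by tissue, with the mouse as the symbol and the median of the libraries as a line. The 2 mucosa libraries lie above all 10 tumors for Slc26a3, Slc9a3, Aqp8 and Car4 and within the tumor range for Car1 and Atp12a.

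The share of cells with an Aqp8 UMI was lower in tumors too. Thinned to 2000 UMIs per cell, which kept 456 of 484 mucosal and 1072 of 1174 tumor cells, a median of 67.8% of Clca4b-led cells in mucosa and 19.1% in tumors held an Aqp8 UMI, and 78.5% and 25.1% without thinning. Immune cells, which should lack the gene, held one in a median of 0.790% of cells in mucosa and 0.0253% in tumors without thinning. Median depth per library was 7696 to 11629 UMIs in mucosal and 6266 to 13828 in tumor Clca4b-led cells, and 1411 to 3366 and 3041 to 4182 in immune cells.

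These cells are few in tumors but carry most of the RNA of several members. A median of 6.0% of tumor epithelial cells (3.0% to 16.9%) were Clca4b-led, and they gave a median of 97.7% of the Car4 UMIs, 94.9% of the Aqp8 UMIs, 89.2% of the Atp12a UMIs and 71.8% of the Slc26a3 UMIs of tumor epithelium. Tumor 6, the only tumor with at least 20 Cyp2c55-led cells (44), was the exception for Car4, Aqp8 and Slc26a3, with 25.9%, 21.4% and 9.57%. The Slc26a3 share of tumor 9 was also below that of the other 8 tumors, on 5 UMIs in its Clca4b-led cells. In those 44 cells Aqp8 stood at 742 CPM, within the range of the Cyp2c55-led cells of the mucosa (599 to 850 CPM), and Car1 at 3650 CPM, between mucosa 1 (1651 CPM) and mucosa 2 (34519 CPM). As 1 library, it has no test.

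Counted as 1 absorptive epithelial-like class, cells of tumor libraries were mostly Clca4b-led and those of mucosa mostly Cyp2c55-led, so the class compares different clusters. Of the 9 members, 5 were lower and 1 higher in tumors, where 18.5% of the 9291 genes tested were lower and 19.6% higher. Car1 fell by 4.36 on the log2 scale (edgeR adjusted p = 2.17e-05), Slc9a3 by 2.88 (0.00364), Car4 by 1.52 (0.0336) and Aqp4 by 1.44 (0.0102). Cftr fell from 45.1, 24.1 and 33.4 CPM in mucosa 1, 2 and 3 to a median of 8.66 CPM in tumors (edgeR adjusted p = 0.000593). Atp12a rose by 2.12 (edgeR adjusted p = 0.00818), from 89.5, 33.4 and 49.3 CPM in mucosa 1, 2 and 3 to a median of 234 CPM in tumors. Atp12a stood higher in Clca4b-led than in Cyp2c55-led cells of mucosa 2 and 3 and gave no call within the Clca4b-led cluster, and the part of the mix of the 2 clusters in this value was not tested.

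Single libraries decided 3 of the class's calls and moved the size of a further one, Slc9a3, to −3.62 (edgeR adjusted p = 9.54e-05) without tumor 6. Without mucosa 1, whose Aqp4 level was 639 CPM against 188 and 189.6 CPM in mucosa 2 and 3, the Aqp4 difference was −0.68 (edgeR adjusted p = 0.243). Without mucosa 2 the Atp12a adjusted p was 0.0531, and Car4 lost its call without any 1 of mucosa 1, 2 or 3 or of tumors 1 and 8, and also at resolution 2, by DESeq2, with doublets kept and with the tumors of each mouse summed (adjusted p = 0.0532 to 0.169). Aqp8 (−1.68), Slc26a3 (−1.44) and Car2 (−0.94) did not pass (edgeR adjusted p = 0.0648, 0.0639 and 0.0938), but all 9 members passed without tumor 6. With the mouse as a block all 9 passed, these 3 at −2.52 (adjusted p = 0.0087), −2.02 (0.0124) and −1.15 (0.0308), with ranges over their alternatives of 0.00694 to 0.164, 0.00505 to 0.198 and 0.0308 to 0.327. Without tumor 6, 1798 of the 9394 genes tested were lower in tumors and 1866 higher. With the block, 1791 of the 9291 genes tested were lower and 1858 higher.

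The Defb45-led cluster, which no marker list named, had the highest median share of the tumor Aqp4 UMIs. A median of 8.0% of tumor epithelial cells gave a median of 55.7% of them (22.9% to 76.2% over tumors). Aqp4 stood there at 490.3 and 444 CPM in mucosa 2 and 3 and at 181, 285 and 372 CPM (lowest, median, highest) in tumors. Car2 stood at 685 and 590.2 CPM in mucosa and 90.6, 196 and 542 CPM in tumors. Both were lower in tumors (Aqp4 −0.82 ± 0.22, edgeR adjusted p = 0.0262; Car2 −1.44 ± 0.43, edgeR adjusted p = 0.0383), 2 of the 7 members tested, where 6.9% of the 10788 genes tested were lower and 5.74% higher. Neither passed when mucosa 2 or mucosa 3 was left out, nor did Car2 without any 1 of tumors 1, 2, 5, 7, 8 and 9, and without tumor 6 Slc26a3 (edgeR adjusted p = 0.00092) and Atp12a joined them as 4 calls. Cftr stood at 35.9 and 65.6 CPM in mucosa and 35.5, 55.3 and 80.1 CPM in tumors, a log2 difference of 0.07 ± 0.28 (edgeR adjusted p = 0.900). Atp12a was lower with the mouse as a block (−1.72, adjusted p = 0.0312, range over its alternatives 0.0312 to 0.637) and not without it (−1.46 ± 0.54, 0.0812), and the difference was −0.78 without mucosa 3. Aqp8 and Slc9a3 were too low there to be tested.

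In goblet-like cells, the mucus-secreting class, 1 of the 7 members tested was called, where 6.44% of the 8295 genes tested were lower and 8.58% higher in tumors. Aqp4 stood at 21.3, 37.6 and 19.5 CPM in mucosa 1, 2 and 3 and at 24.5, 52.3 and 88.3 CPM (lowest, median, highest) in the 9 tumors with at least 20 such cells, a log2 rise of 1.20 ± 0.29 (edgeR adjusted p = 0.0116). The ranges overlapped. The call was lost without mucosa 1 (1.09, edgeR adjusted p = 0.0557) or mucosa 3 (1.04, 0.0815), and with doublets kept (0.51, 0.217). The class pools Retnlb-led cells (264 in tumors, 3366 in mucosa) and Zg16-led cells (337 and 1096) in unequal shares. Aqp4 stood at medians of 23.4 CPM in mucosa and 68.7 CPM in tumors in the Retnlb-led and of 13.9 and 6.06 CPM in the Zg16-led cells, and the part of the mix was not tested. Atp12a, which reached 95.3 CPM in mucosal and 193 CPM in tumor Zg16-led goblet-like cells, differed by 1.41 ± 0.68 over the class (edgeR adjusted p = 0.176), by 0.84 without mucosa 1 and by 2.45 without mucosa 3. With doublets kept, Car1 (−3.30, edgeR adjusted p = 0.0036) and Cftr (−1.07, 0.0328) were called instead of Aqp4.

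Most tumor epithelial cells were Krt17-led (a median of 40.3%) or Mt4-led (32.2%), and in these Slc26a3, Aqp8 and Car4 stood at no more than 0.51 CPM. The 6959 Krt17-led cells held 3 Aqp8 UMIs and the 4842 Mt4-led cells held 6. Slc9a3 was found mostly there: Mt4-led cells gave a median of 62.8% of the Slc9a3 UMIs of tumor epithelium and Krt17-led cells 27.8%. It stood at 59.0, 111 and 179 CPM (lowest, median, highest) in Mt4-led cells and at 26.0, 55.3 and 113 CPM in Krt17-led cells, and was higher in the Mt4-led cells of 10 of 10 tumors. Thinned to 2000 UMIs, a median of 19.0% of Mt4-led and 9.32% of Krt17-led cells held a Slc9a3 UMI, and 68.9% and 36.1% without thinning, against 0.230% of tumor immune cells without thinning. The dividing Hist1h3c-led tumor cells held Slc9a3 at a median of 61.2 CPM and the Paneth-like Defa24-led cells at 33.1 CPM. In the mucosal Sult1a1-led and Hist1h1b-led cells it was at most 1.70 and 1.46 CPM.

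Between the Krt17-led and Mt4-led cells, Car1, Car2, Aqp4 and Cftr ran opposite to Slc9a3. Car1 stood at a median of 204 CPM in Krt17-led and 17.4 CPM in Mt4-led cells, and Cftr at 15.8 and 1.85 CPM, both higher in the Krt17-led cells of 10 of 10 tumors. Car2, at medians of 100.4 and 46.3 CPM, and Aqp4, at 17.0 and 4.47 CPM, were higher in the Krt17-led cells of 9 of 10 tumors. Tumor 10 was the exception for Car2, with 137 CPM in Krt17-led and 184 CPM in Mt4-led cells, and tumor 6 for Aqp4, with 7.04 and 8.96 CPM. Clusters were chosen from the same cells, so these are descriptions with no test.

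Tumors differed widely in both Car1 and Aqp4 of the Krt17-led cells, at 12.2 to 380 CPM and 0.834 to 59.9 CPM.

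**Figure D4:**
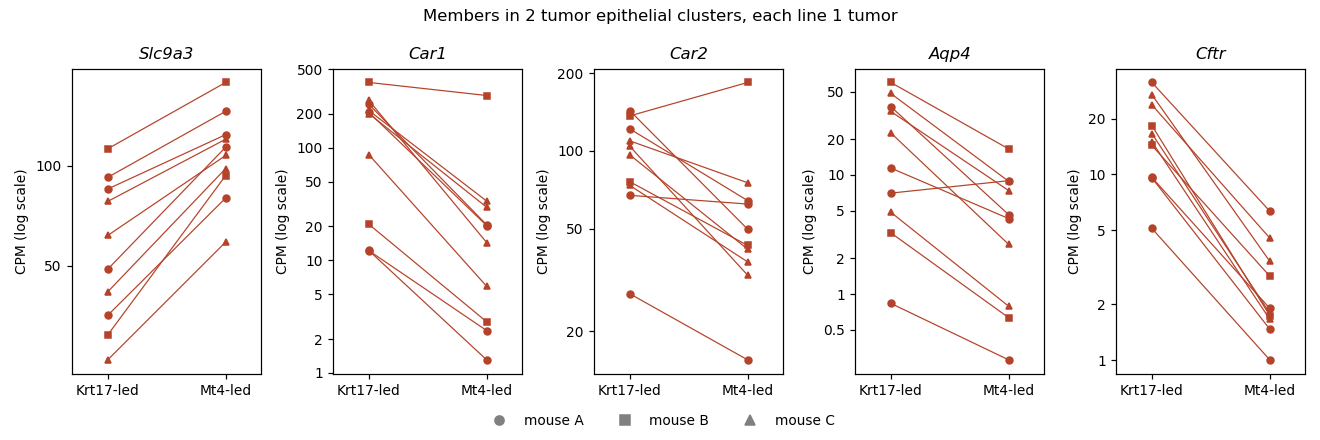
CPM of 5 members in the Krt17-led and Mt4-led cells of each tumor (log axis), each line 1 tumor, with the mouse as the symbol. The Slc9a3 lines rise from Krt17-led to Mt4-led cells in 10 of 10 tumors, and the Car1 and Cftr lines fall in 10 of 10.

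Within the absorptive cells of the mucosa, the share of cells with an Aqp8 UMI was lower among those with an Aqp4 UMI, though some held both. Thinned to 2000 UMIs, 8.51%, 13.1% and 6.77% of the Cyp2c55-led cells with an Aqp4 UMI held an Aqp8 UMI in mucosa 1, 2 and 3, against 69.7%, 31.3% and 24.6% of those without Aqp4. In the Clca4b-led cells of mucosa 2 and 3 the shares were 34.8% and 42.4% with Aqp4 against 82.3% and 65.5% without. All 5 groups of cells pointed the same way, though the 3 libraries are shared between the clusters. Car4 followed Aqp8: 19.1%, 23.9% and 17.7% of Cyp2c55-led cells with Aqp4 held it, against 83.1%, 59.5% and 56.2% of those without.

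Car2, the cytosolic anhydrase, went with Aqp4 instead. It was found in 77.7%, 67.5% and 65.6% of Cyp2c55-led cells with an Aqp4 UMI in mucosa 1, 2 and 3 and in 33.1%, 36.0% and 34.7% of those without, while 9.29% to 11.7% of mucosal immune cells held a Car2 UMI at the same depth. Aqp8 and Car4 were found together, with Car4 in 96.3%, 89.1% and 90.9% of Cyp2c55-led cells that held Aqp8 and in 25.6%, 39.0% and 39.0% of those that did not. In tumors, a pair of genes was read only where the Clca4b-led cells of a library held at least 100 thinned cells and at least 20 with each gene. For Aqp4 and Car2 that left tumor 10, with Car2 in 25% of cells with Aqp4 and 17.6% of those without, and for Aqp8 and Car4 it left 3 of the 10 tumors. There Car4 was found with and without Aqp8 at 82.6% against 17.6% in tumor 3, 79.2% against 22.8% in tumor 4 and 60.5% against 21.7% in tumor 7. These shares describe cells of a few libraries and carry no test.

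**Figure D5:**
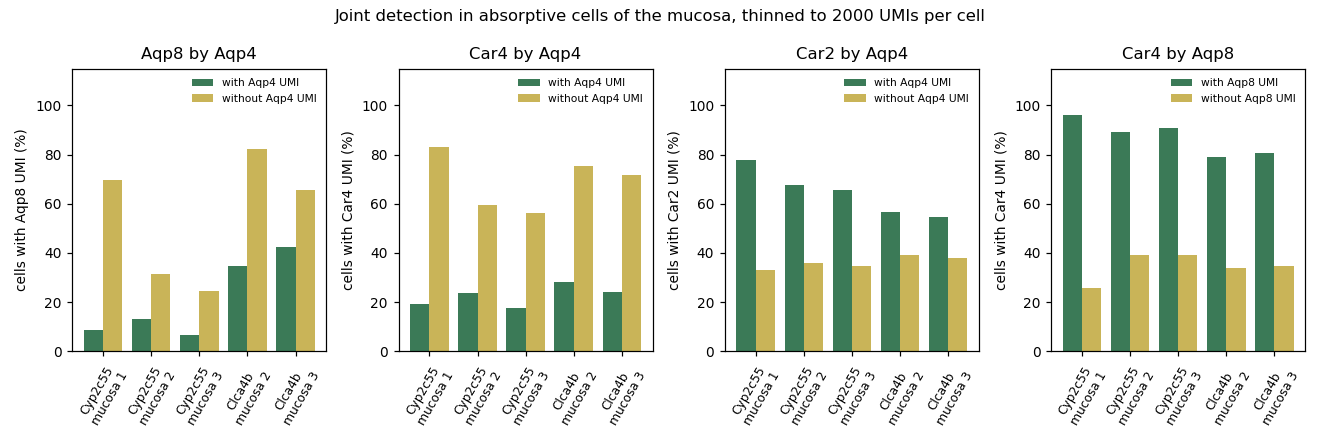
Share of cells (%) with an Aqp8, Car4 or Car2 UMI among cells with and without an Aqp4 or Aqp8 UMI, in the Cyp2c55-led and Clca4b-led cells of the mucosa libraries, thinned to 2000 UMIs per cell. Aqp8 and Car4 are rarer, and Car2 more frequent, in cells with Aqp4 in all 5 groups of cells.

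Across 18 means of a cell class in a tissue, the gene most like Aqp8 among 8763 was Car4 (Pearson r = 0.992 on log2(CPM + 1), a description), followed for both by Sgk2 (0.976). Slc26a3 was most like Ces2c (0.975), a carboxylesterase, and Atp12a most like Saa1 (0.969), an acute-phase protein. Slc9a3 had no near partner among the members: its highest r with a member was 0.313, with Car4. With its exchange partner Slc26a3 it was 0.211. Among all genes compared, its highest r was 0.916, with Aspa, followed by Tns4 and Mxi1. Slc9a3 and Cftr ran most against each other of the 36 pairs (−0.515). Aqp4 was most like Pde3a (0.947), Car1 like Slc35d1 (0.934), Car2 like Glod5 (0.921) and Cftr like Noxa1 (0.926), and Saa1, an absorptive marker, was used for naming the clusters.

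The 60 other genes of colonic salt and water transport were listed by role, with earlier results of these data known. In the epithelial sums 47 were tested. Of these, 31 were lower and 6 higher in tumors, against 30.2% and 33.7% of all genes, with a median log2 change of −0.80. Both aquaporins tested fell, Aqp1 by 2.79 and Aqp11 by 2.53 on the log2 scale. Of 8 carbonic anhydrases tested 5 fell, led by Car8, an inactive family member (−4.45 ± 0.26, edgeR adjusted p = 5.88e-08; 43.7 to 60.4 CPM in mucosa and 1.95 to 6.80 CPM in tumors), and Car12 (−2.08).

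Of the anion exchangers and bicarbonate transporters 4 of 6 fell, among them the sulfate transporter Slc26a2 (−2.16) and the sodium-bicarbonate cotransporter Slc4a4 (−1.78). Slc26a6 rose by 0.68, from 0.256 to 0.539 CPM in mucosa to 0.507 to 0.873 CPM in tumors. Slc26a9 rose from at most 0.0505 CPM in mucosa to 0.611 to 3.38 CPM in tumors. Of the sodium-proton exchangers and scaffolds 6 of 7 fell, including the scaffolds of NHE3 Pdzd3 (−2.45) and Slc9a3r2 (−2.22), while the scaffold Pdzk1 rose from 0.0168 to 0.0622 CPM in mucosa to 0.306 to 1.52 CPM in tumors. In the sodium channel and aldosterone group 5 of 7 fell, with Hsd11b2, which shields the mineralocorticoid receptor from glucocorticoids, at −2.91 and the channel subunit Scnn1a at −1.23. The group of chloride secretion had 6 of 11 lower, led by the hormone guanylin (Guca2a, −3.31) and the anion channel Best2 (−2.12), and 2 higher, the kinase Prkg2 (1.34) and the chloride channel Ano1 (0.94). Around the sodium-potassium pump 3 of 6 fell, including the potassium channel Kcnma1 (−2.13). Fxyd4, a pump regulator, rose by 2.52 ± 1.02 (edgeR adjusted p = 0.043). Among the called genes named from the list, the tumor and mucosa ranges overlapped for Slc26a6, Prkg2, Fxyd4, Car12 and Scnn1a. The remaining 10 did not pass, among them the secretory cotransporter Slc12a2 (−0.07) and the sodium channel subunits Scnn1b (0.09) and Scnn1g (0.47).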

How the data were processed

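Single-cell RNA libraries were made with the Chromium 3′ kit. Per the labels and file headers, the authors counted UMIs with Cell Ranger (6.0.0 in the submitters' processing notes) against mm10 and deposited unnormalized UMI counts per library. The published methods of the study name another version of Cell Ranger. Symbols were taken from the files. No column of another series was present. Barcodes below 500 UMIs or 200 genes, or with 25% or more of mitochondrial UMIs, were dropped, and the highest simulated-doublet scores were removed (0.8% per 1000 barcodes), leaving 108495 cells of 137591 barcodes, with 10397 doublets removed. Cells were clustered with scanpy 1.11.5 and leidenalg 0.10.2 (2000 variable genes without the 69 transport genes, 30 components, resolution 1) into 36 clusters, named by fixed marker lists. The Krt17-led cluster scored as stem or crypt-like and was left unnamed once its leading genes had been seen.

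UMIs were summed per library and class (at least 20 cells) and tested with edgeR 4.0.16 in R 4.3.3 (quasi-likelihood test, TMM, filterByExpr, Benjamini-Hochberg over all genes tested, threshold 0.05). The test script was tested on simulated data. Comparisons in different sets of cells share libraries and are not independent. The samples of a group are separate tissue pieces, but tumors of 1 mouse share the animal. Deviations of tumors and mucosa of one mouse correlated over 15485 genes (mouse A, r = 0.209; mouse B, 0.105; mouse C, 0.234), so the mouse was tried as a block. Each ± value is the SE from the edgeR fit and includes the spread between libraries.

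Named were the 9 members, up to 2 genes per transport group and direction with the largest fold, and the 3 genes most like each member. One gene that this rule names is not reported here. Slc12a2, Scnn1b and Scnn1g were named after their values were seen. Members and lists were chosen with earlier results of these data known. Alternatives were DESeq2 1.42.0, other filters, resolution 2, doublets kept, free RNA subtracted, tumors summed per mouse and each library left out.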

Additional observations from a re-analysis of the deposited data

Results flagged for a closer look

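Of 34 sets of tumor libraries examined, 6 held a library far from the others by Dixon's outlier test on CPM. Its rate of about 1 in 20 by chance holds for independent sets of normal values. These sets share the same tumors, and CPM need not be normal, so the 6 cannot be set against that rate. Tumor 10 stood apart in its Mt4-led cells for 3 members: Car1 at 291 CPM (next 33.6), Car2 at 184 CPM (next 75.3) and Aqp4 at 16.5 CPM (next 8.96). Tumor 6 stood apart for Slc26a3 in Defb45-led cells, at 29.3 CPM (next 8.63), and for Cftr in the epithelial sum, at 35.5 CPM (next 19.5). In the Clca4b-led cells, Aqp4 of tumor 5 stood at 258 CPM (next 150.2).

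Outside the epithelium, the Hbb-bt-led cluster, whose leading gene encodes a hemoglobin chain, held Car2 at a median of 628 CPM over 6 libraries, against 36.5 CPM in immune cells. It was in no comparison between tissues.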

How the results depend on the processing

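In the epithelial sums, 7 members were called, and 7 again under each alternative except DESeq2 (6, with no adjusted p for Car1) and the exact permutation test (6), and also with any 1 library left out. Summing only clusters with cells of both tissues, added after seeing the data, left 2 calls and gave log2 differences of 1.42 for Aqp4, 2.25 for Atp12a, 0.016 for Aqp8, 0.76 for Car1, 0.28 for Car2 and 0.42 for Slc26a3. There 2855 of the 12336 genes tested were higher in tumors and 2175 lower. Atp12a, which had no call, changed sign with free RNA subtracted (−0.0081), under 10% mitochondrial UMIs (−0.0615) and without goblet-like cells (−0.0582), and ranged from −0.0509 to 0.54 with 1 library left out. The transport list gave 32 to 40 calls against 37 in the settings where it was counted. It was not counted in the sum of clusters with cells of both tissues. Nor was it counted without goblet-like cells or with epithelial cells chosen by marker UMIs. The free RNA setting took off the whole immune-cell level of each gene, including RNA that both kinds of cell make. In mucosa 1 it left 19800982 of 59392203 epithelial UMIs, so it cannot show what free RNA alone adds. This setting moved the median log2 change of all genes to 1.02 (0.41 in absorptive cells) and dropping the filter moved it to 0.21.

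The class of absorptive cells gave 6 calls, 4 to 9 with 1 library left out (9 without tumor 6) and 9 with the replicate block by mouse. The counts over all genes in the last 2 fits are given in the results. Over its members, the other settings, the block included, made 11 further calls and lost 4, each of them Car4. The Clca4b-led and Defb45-led clusters were tested in addition, after seeing the data. The Clca4b-led cluster gave 4 calls (2 to 4 with 1 library left out), lost Slc9a3 under DESeq2 and gained Aqp4 with tumors summed and Car2 under the block. Its uncalled Car1 changed sign with the mouse as a block (−0.15), with tumors of a mouse summed (−0.0686) and with 1 library left out (−0.13 to 0.23), as did Cftr (−0.0515 to 1.14). The Defb45-led cluster gave 2 calls (0 to 4 with 1 library left out), and the other settings made 2 further calls and lost 1. The further calls were Atp12a under the block and Car4, which had a median of 0 CPM in tumors. Cftr of this cluster stood at −0.0013 under the block and −0.32 to 0.61 with 1 library left out. Beside the calls given with the block in the results, it changed no other member's call.

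Goblet-like cells gave 1 call, 0 to 1 with 1 library left out and 2 others (Car1 and Cftr) with doublets kept. There, uncalled members changed sign: Aqp8 (−0.19 with doublets kept, −0.52 under 10% mitochondrial UMIs), Car1 (3.80 with free RNA subtracted), Car2 (0.0496 at resolution 2, 0.56 with free RNA subtracted, 0.0447 with tumors summed, −0.16 to 0.0896 with 1 library left out), Car4 (−0.46 with doublets kept) and Cftr (0.19 at resolution 2). Thinning to 1000 instead of 2000 UMIs moved the tumor minus mucosa difference in the share of Clca4b-led cells with a UMI to −22.7 from −41.4 percentage points for Slc26a3, −4.16 from −10.4 for Slc9a3 and −4.74 from −8.95 for Aqp4. A share falls with the UMIs kept by construction, but a difference between shares need not. For Car4 the difference was −44.2 at 1000 UMIs and −42.0 at 2000. It was nearly the same for Atp12a and smaller in size at 1000 UMIs for the remaining members. The cause of these and the other changes was not tested.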
